A study of Mus musculus with 16 samples.

Results

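DNA replication and S phase genes were followed across sorted mouse T cells with and without Tsc1. The set was taken as a given list of 45 genes, and 44 of them were measured among the 17097 genes that the arrays report through a probe set naming 1 gene. Chaf1a has no such probe set in the table and was not analysed here. Each gene is represented by its brightest probe set over the 16 arrays, and 27 of the 44 members have more than 1. Of the 44, 43 exceeded the table median of 3.36 in at least 1 group, and Orc1 did not.

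Replication starts when the origin recognition complex, Cdc6 and Cdt1 load the MCM2-7 helicase onto DNA before S phase, and Mcm10, Cdc45 and the GINS proteins then help to turn it into a moving helicase. The polymerases copy the strands with the sliding clamp Pcna and its loader, while ribonucleotide reductase, thymidylate synthase and their partners supply the nucleotides, and nucleosomes and DNA methylation are restored behind the fork. E2F factors drive transcription of many of these genes as a cell leaves quiescence, and naive T cells are quiescent until their antigen receptor is engaged.

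The cells were naive T lymphocytes sorted from C57BL/6 mice, either wild-type or Tsc1-deficient, and measured on 16 single-colour Affymetrix arrays. Tsc1 is a subunit of the complex that restrains the growth kinase mTORC1. Wild-type and Tsc1-deficient CD4 cells gave 4 groups of 3 arrays, taken either at 0 h, without stimulation, or after 4 h of stimulation. Plate-bound anti-CD3 and anti-CD28 then engaged the antigen receptor and the costimulatory receptor CD28. Wild-type and Tsc1-deficient CD8 cells were measured unstimulated, with 2 arrays in each group. The labels give no age, no allele, no promoter for a deleter and no statement that each array stands for its own mouse, so p-values rest on a spread between arrays that may be only technical. One sentence of the labels' treatment text names HIF1a-deficient mice as the source, whereas every title and genotype entry names Tsc1, and those were followed. Values are log2 signals, a change is a difference of group means with its standard error after ±, and a gene is called at an adjusted p under 0.05 in limma's moderated test over all 17097 genes. Levels of different genes are not compared, because probe sets differ in brightness.

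Tsc1 itself was lower in deficient cells in all 3 settings, with changes of -0.83 ± 0.10 in unstimulated CD4 cells (adjusted p = 3.77e-05), -1.06 ± 0.10 after 4 h (adjusted p = 4.63e-06) and -0.55 ± 0.12 in CD8 cells (adjusted p = 0.00892), with no overlap between arrays. The T cell markers averaged 10.12 to 11.11 on every array, and the CD8 lineage pair read 11.83 to 12.07 on CD8 arrays against 5.41 to 7.83 on CD4 arrays. All 7 early activation genes rose with stimulation in both genotypes. Replicate arrays correlated at 0.9919 to 0.9971. RNA integrity was read from Gapdh, whose 3' control probe set exceeded the 5' one by 0.024 to 0.404 on 14 arrays. Stimulated deficient CD4 replicate 1 stood above these at 0.956, as did deficient CD8 replicate 2 at 0.642. Counts of called members are therefore also given without these 2 arrays. Markers and other pathway genes are given with all arrays only. In bulk RNA, a higher signal from more cells of one kind and from more transcript per cell cannot be told apart.

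Exact E2F sites and CCAAT boxes were found in a larger share of member promoters than of all promoters, which was not tested. RefSeq start-site windows (GRCm38.p6, 250 bases before to 50 after a start) were found for 38 of the 44 members, 48 windows in all. An exact E2F site (TTTCCCGC, TTTGGCGC, TTTCGCGC or TTTGCCGC on either strand, which can overlap each other) lay in 15 of the 48 windows (31.2%) and in 2.26% of all 32851 windows of this length. Counted by gene, it was found for 15 of 38 members (39.5%) and for 3.79% of the 13605 tested genes with a window. The CCAAT box, on either strand, was found for 24 of the 38 members (63.2%) and for 42.3% of tested genes. The cell cycle homology element (TTTGAA or TTTAAA, either strand) was found for 11 of 38 (28.9%) and 24.8%. By window it was found in 12 of 48 (25.0%) and in 27.6% of all windows. A match describes letters and is no evidence of binding.

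Promoters of Rrm2, Uhrf1 and Chaf1b, members that were higher in deficient cells in all 3 settings, are printed from 200 to 1 bases before the start (plus strand of GRCm38.p6: chr12:24708054-24708253, chr17:56304113-56304312 and chr16:93883701-93883900), with E2F and CCAAT matches on either strand in capitals. For E2f2, the other such member, the printed 30 bases run from 21 to 50 after the start (chr4:136172294-136172323, plus strand), where its E2F match lies. Uhrf1 and E2f2 each have 2 windows, and for both the window with an E2F match was chosen for printing. Their other windows hold no exact E2F site.
Rrm2: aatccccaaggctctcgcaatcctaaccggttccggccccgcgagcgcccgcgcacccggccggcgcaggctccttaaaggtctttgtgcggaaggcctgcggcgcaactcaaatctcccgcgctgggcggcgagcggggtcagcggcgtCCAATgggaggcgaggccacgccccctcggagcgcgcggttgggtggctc
Uhrf1: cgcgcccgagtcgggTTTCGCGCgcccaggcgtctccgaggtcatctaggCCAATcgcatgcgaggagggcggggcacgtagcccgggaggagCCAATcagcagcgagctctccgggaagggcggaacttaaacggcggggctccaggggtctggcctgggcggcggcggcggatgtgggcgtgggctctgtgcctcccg
Chaf1b: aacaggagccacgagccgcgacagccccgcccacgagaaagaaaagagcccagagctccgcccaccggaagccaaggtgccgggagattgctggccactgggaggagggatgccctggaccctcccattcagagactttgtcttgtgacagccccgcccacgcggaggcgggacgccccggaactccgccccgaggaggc
E2f2: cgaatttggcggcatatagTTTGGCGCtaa
The Rrm2 stretch holds 1 CCAAT box and no exact E2F site, the Uhrf1 stretch holds 1 E2F site and 2 CCAAT boxes, and the Chaf1b stretch holds neither. The helicase genes Mcm5 (chr8:75109339-75109438, plus strand) and Mcm6 (chr1:128359726-128359825, minus strand) hold E2F matches of both strands that overlap, and are printed with the same capitals.
Mcm5: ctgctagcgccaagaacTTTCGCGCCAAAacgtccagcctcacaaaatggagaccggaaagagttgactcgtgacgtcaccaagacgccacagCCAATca
Mcm6: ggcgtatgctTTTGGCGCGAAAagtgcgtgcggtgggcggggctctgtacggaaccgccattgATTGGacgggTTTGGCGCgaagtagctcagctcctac
Of the 15 members higher in deficient cells in at least 1 setting, 13 have a window and 6 of these hold an E2F site (46.2%), against 9 of the 25 other members with a window (36.0%). No test was made of that difference.

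Resting Tsc1-deficient T cells had more transcript from part of the replication gene set. In unstimulated CD4 cells 10 of 44 members were higher and 0 lower, where 5.83% of all genes were called, 3.96% higher and 1.87% lower. In unstimulated CD8 cells 12 of 44 were higher and 0 lower, with a background of 5.82%, 3.64% higher and 2.18% lower. The median change of the members was 0.27 in CD4 and 0.30 in CD8 cells, against 0.01 and -0.01 over all genes. After 4 h of stimulation 6 members were higher in deficient CD4 cells and 1, Mcm7, was lower, with a background of 9.45%, 5.59% higher and 3.86% lower, and a median of 0.09 against 0.00. Quantile normalization gave 6 higher and 2 lower there. Counted by arrays that did not overlap, 30 members were higher and 3 lower in unstimulated CD4 cells (16.5% and 12.1% of all genes), 11 and 6 after 4 h (12.7% and 11.3%), and 25 and 3 in CD8 cells (22.9% and 23.1%).

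**Figure D1:**
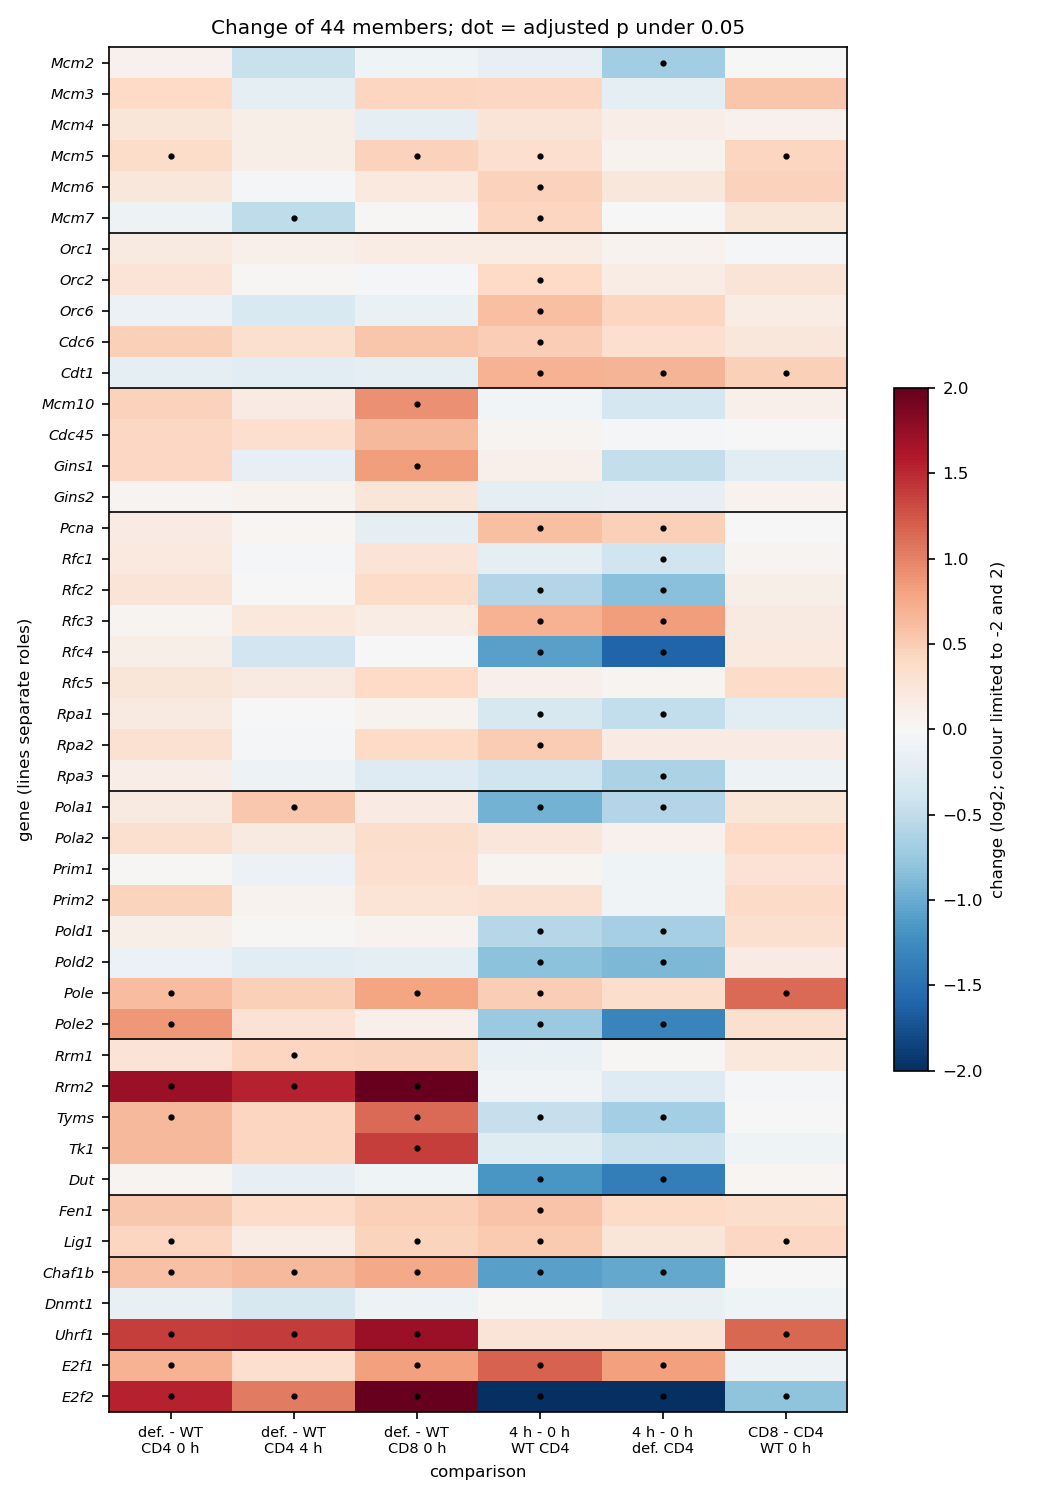
Change of the 44 measured members (rows, ordered by role, lines between roles) in 6 comparisons (columns: Tsc1-deficient minus wild-type in 3 settings, 4 h minus 0 h in each genotype, CD8 minus CD4 in wild-type cells), in log2 units with colour limited to -2 and 2 and a dot at an adjusted p under 0.05. Red dots in the first 3 columns lie mostly in nucleotide supply, Chaf1b, Uhrf1 and the E2F factors, and the stimulation columns hold both colours.

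The members higher in all 3 settings were Rrm2, Uhrf1, E2f2 and Chaf1b, 4 of 44, where 197 of all genes (1.15%) were higher in all 3. Between the unstimulated CD4 and CD8 cells, 9 members were shared, which is 90% of the CD4 list and 75% of the CD8 list. Of all genes, 342 (2.0%) were higher in both, out of 677 higher in CD4 and 622 higher in CD8 cells. A change above 0 in both was found for 32 of 44 members and 31.5% of all genes. These comparisons have no array in common. Over the 44 members the changes in CD4 and CD8 cells correlated at r = 0.90 (rho = 0.83), a description over genes that share the same arrays. Over all 17097 genes r was 0.62.

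Fewer members were called when single arrays were left out. In unstimulated CD4 cells 5 to 7 members were called, where 3.45% to 4.12% of all genes were, against 5.83% with all arrays. The members called were 6 when wild-type replicate 1 or deficient replicate 2 was left out, 5 when wild-type replicate 2 or 3 was, and 7 when deficient replicate 1 or 3 was. The 7 without deficient replicate 1 included Mcm10, which was not called with all arrays. In CD8 cells 5 to 8 were called, with 5 without wild-type replicate 1 or 2 and 7 (6 higher, 1 lower) without deficient replicate 1. Of those 7, 5 were also called with all arrays, and Cdc45 (higher) and Mcm4 (lower) were not. Without the 2 arrays of high Gapdh difference the counts were 15 higher in unstimulated CD4, 8 higher and 0 lower in stimulated CD4, and 16 higher in CD8 cells. Neither of these 2 arrays is in the unstimulated CD4 groups, where 10.1% of all genes were called without them, and 10.5% were after 4 h. In CD8 cells leaving them out kept 1 deficient array. Fitting only the compared groups gave 14 members higher in unstimulated CD4, 4 in stimulated CD4 and 6 in CD8 cells. Of all genes, 8.28%, 4.81% and 1.57% were called in those fits. Rrm2, Uhrf1 and E2f2 were called in all 3 settings under every alternative run, with adjusted p-values of at most 0.00372, 0.00621 and 0.00106 in CD8 cells.

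Markers of dividing cells and of neutrophils moved with genotype as well. Of 12 measured mitosis genes, 6 were higher in deficient unstimulated CD4 cells, 9 after 4 h and 8 in CD8 cells, where 3.96%, 5.59% and 3.64% of all genes were. None of the mitosis genes was lower in those comparisons. Their mean per array was 3.36 to 3.53 in unstimulated wild-type CD4 cells and 4.33 to 4.61 in deficient ones, 3.35 to 3.54 and 4.16 to 4.94 after 4 h, and 3.42 to 3.55 and 4.68 to 5.07 in CD8 cells. Mki67, the proliferation marker, was higher by 1.68 ± 0.15 (adjusted p = 3.58e-06), 2.26 ± 0.15 (adjusted p = 2.61e-07) and 2.99 ± 0.19 (adjusted p = 6.85e-08) in those settings. The 8 neutrophil genes averaged 3.31 to 4.30 against 4.46 to 6.35 per array in unstimulated CD4 cells, 3.21 to 3.69 against 4.58 to 6.08 after 4 h, and 3.44 to 4.43 against 4.65 to 5.68 in CD8 cells. Of these 1, 4 and 0 were called, and Elane stayed below the table median in every group. Of 5 early thymocyte genes none was called by genotype. Rag1, Rag2 and Ptcra were below the table median in every group, Dntt lay at 4.40 to 5.67 and Cd1d1 at 8.19 to 8.79 on the unstimulated arrays, and the list averaged 3.88 to 4.28 per array there. Markers called for B, NK and myeloid cells were all higher in deficient cells. They were Cd79b (B cells) in both unstimulated comparisons and Gzma (NK and cytotoxic cells) in all 3. The myeloid Lyz2, Mpeg1 and Cd68 were called after 4 h. These lists of 4 B cell, 5 NK and 6 myeloid measured genes held no other genotype call. The myeloid Csf1r, Adgre1 and Itgax had lower means in deficient cells after 4 h. In unstimulated CD4 cells Cd79a and Pax5 had lower means in deficient cells and Ms4a1 a higher one. No platelet or erythroid marker was called. Ikzf2, of the regulatory T cell list, was higher after 4 h by 0.73 ± 0.19 (adjusted p = 0.0232), and Cd8a changed by -0.84 ± 0.21 (adjusted p = 0.0268) in unstimulated CD4 cells. Both measured naive T cell genes were lower after 4 h, with changes of -0.83 ± 0.12 (adjusted p = 0.000373) for Lef1 and -0.44 ± 0.11 (adjusted p = 0.0151) for Klf2. Cd3g and Cd28 of the T cell list were also lower then. Of the early activation genes, Il2ra was higher and Egr1 lower after 4 h, and Cd69 and Myc were lower in CD8 cells. The part of these cells in the changes of the replication genes was not tested.

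Nucleotide supply held the member with the largest change. Rrm2 encodes the regulatory subunit of ribonucleotide reductase, which makes deoxynucleotides and accumulates in S phase. Rrm2 read 3.66, 3.42 and 3.64 on the unstimulated wild-type CD4 arrays and 5.18, 5.26 and 5.44 on the deficient ones, 3.59, 3.55 and 3.35 against 4.73, 5.47 and 4.92 after 4 h, and 3.38 and 3.68 against 6.29 and 5.74 in CD8 cells. All wild-type arrays lay below all deficient arrays. Deficient cells had 3.3-fold more signal in unstimulated CD4 cells, a change of 1.72 ± 0.17 (adjusted p = 9.61e-06), 2.91-fold more after 4 h, 1.54 ± 0.17 (adjusted p = 3.16e-05), and 5.6-fold more in CD8 cells, 2.49 ± 0.21 (adjusted p = 2.68e-06). Averaging both probe sets of the gene gave 1.56 in CD8 cells, still called. The dimmer probe set alone changed by 0.65, 0.64 and 0.63 and was called in the CD4 comparisons (adjusted p = 0.0383 and 0.0285) but not in CD8 cells (adjusted p = 0.102).

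Thymidylate synthase and thymidine kinase feed thymidine nucleotides into replication and followed with smaller values. Tyms read 4.86, 4.67 and 4.78 on the unstimulated wild-type CD4 arrays and 5.30, 5.74 and 5.22 on the deficient ones, 4.38, 4.41 and 4.13 against 4.60, 5.11 and 4.52 after 4 h, and 4.65 and 4.90 against 6.07 and 5.75 in CD8 cells. Tk1 read 2.75, 2.81 and 2.97 on the unstimulated wild-type CD4 arrays and 3.11, 4.00 and 3.36 on the deficient ones, 2.45, 2.82 and 2.56 against 2.47, 3.69 and 2.96 after 4 h, and 2.67 and 2.84 against 4.45 and 3.84 in CD8 cells. Tyms did not overlap between genotypes in any setting, and wild-type Tk1 lay below the table median on every array. Tyms was higher by 0.65 ± 0.16 (adjusted p = 0.0232) in unstimulated CD4 and by 1.14 ± 0.20 (adjusted p = 0.00245) in CD8 cells, while after 4 h the difference of 0.43 ± 0.16 (adjusted p = 0.115) was not called. Its 4 other probe sets, all below the table median, changed by -0.17 to 0.08 in unstimulated CD4 and -0.33 to 0.25 in CD8 cells, none called, and with the probe sets averaged the changes were 0.13 and 0.24 and not called. Tyms in unstimulated CD4 cells was also not called without wild-type replicate 2 or 3 or deficient replicate 2 (adjusted p 0.0727 to 0.13, and 0.0194 to 0.402 over all alternatives run). Tk1 was called in CD8 cells, 1.39 ± 0.31 (adjusted p = 0.0144), but not without wild-type replicate 1 or 2 or deficient replicate 1 (adjusted p 0.0647 to 0.125, and 0.00714 to 0.125 over all alternatives run); its CD4 values were 0.65 ± 0.26 (adjusted p = 0.18) and 0.43 ± 0.26 (adjusted p = 0.373).

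Rrm1, the catalytic subunit that pairs with Rrm2, differed less than its partner. Rrm1 read 6.54, 6.57 and 6.22 on the unstimulated wild-type CD4 arrays and 6.67, 6.64 and 6.81 on the deficient ones, 6.31, 6.43 and 6.20 against 6.73, 6.83 and 6.66 after 4 h, and 6.62 and 6.67 against 7.19 and 7.01 in CD8 cells. Its arrays did not overlap between genotypes in any setting. The stimulated CD4 difference of 0.43 ± 0.11 (adjusted p = 0.0184) was called, whereas 0.27 ± 0.11 (adjusted p = 0.184) at 0 h and 0.45 ± 0.13 (adjusted p = 0.0558) in CD8 cells were not. Rrm1 was no longer called without wild-type replicate 1 or 3 or deficient replicate 2 (adjusted p 0.0557 to 0.0887, and 0.0122 to 0.433 over all alternatives run) or with both probe sets averaged (0.21, adjusted p = 0.433). Dut, which removes dUTP from the nucleotide pool, differed between genotypes by 0.05 ± 0.21 (adjusted p = 0.95), -0.17 ± 0.21 (adjusted p = 0.74) and -0.09 ± 0.26 (adjusted p = 0.911) and overlapped in all 3 settings.

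**Figure D2:**
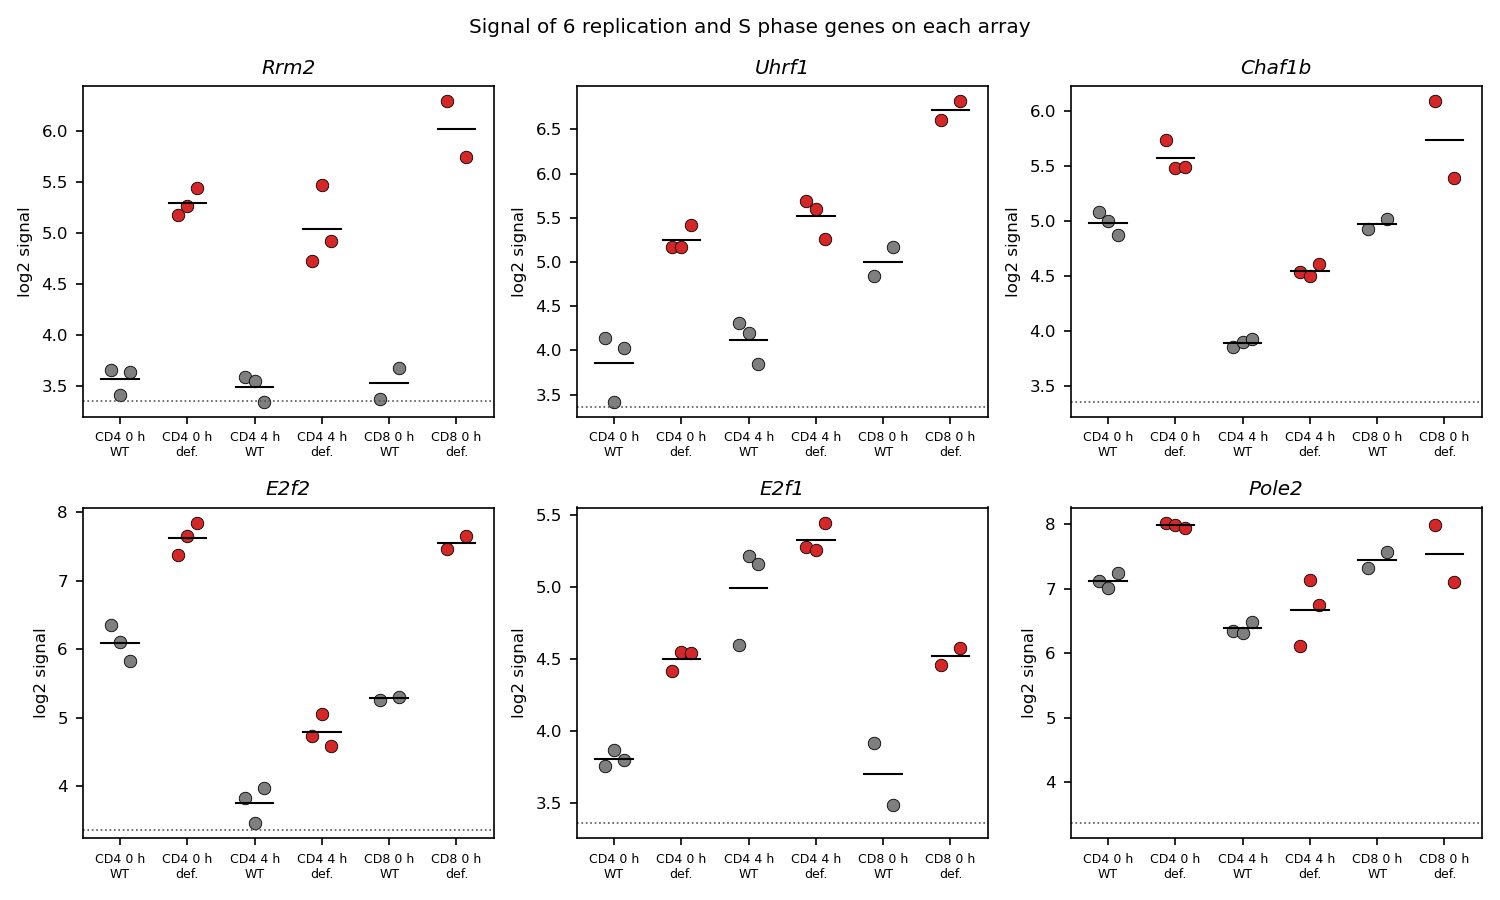
Log2 signal (vertical axes, a separate scale for each gene) of 6 members on each of the 16 arrays, grouped on the horizontal axis by cell type, time and genotype (grey, wild-type, WT; red, Tsc1-deficient, def.), with bars at group means and a dotted line at the table median of 3.36. Rrm2, Uhrf1, Chaf1b and E2f2 show every deficient array above every wild-type array of the same setting, and E2f2 and Chaf1b drop after 4 h in both genotypes.

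The E2F factors E2f1 and E2f2 were both higher in resting deficient cells. E2f2 read 6.35, 6.10 and 5.83 on the unstimulated wild-type CD4 arrays and 7.38, 7.66 and 7.85 on the deficient ones, 3.83, 3.46 and 3.97 against 4.74, 5.06 and 4.59 after 4 h, and 5.26 and 5.31 against 7.46 and 7.65 in CD8 cells. E2f1 read 3.76, 3.87 and 3.80 on the unstimulated wild-type CD4 arrays and 4.42, 4.55 and 4.54 on the deficient ones, 4.60, 5.22 and 5.16 against 5.28, 5.26 and 5.45 after 4 h, and 3.92 and 3.49 against 4.46 and 4.58 in CD8 cells. With the brightest probe set, both genes separated the genotypes completely in every setting. E2f2 was higher by 1.54 ± 0.16 (adjusted p = 1.55e-05) in unstimulated CD4, 1.04 ± 0.16 (adjusted p = 0.000576) after 4 h and 2.28 ± 0.20 (adjusted p = 3.74e-06) in CD8 cells, where the fold was 4.84. Its second probe set gave 1.47, 1.13 and 2.42 and was called each time. E2f1 was higher by 0.70 ± 0.14 (adjusted p = 0.00685) in unstimulated CD4 and 0.82 ± 0.18 (adjusted p = 0.0101) in CD8 cells, and its difference of 0.34 ± 0.14 (adjusted p = 0.17) after 4 h was not called. The second probe set of E2f1, also above the table median, gave 0.378 (adjusted p = 0.0665) in unstimulated CD4 cells and -0.046 (adjusted p = 0.889) after 4 h, neither called. In CD8 cells it gave 0.725 (adjusted p = 0.00498), which was called. In CD8 cells E2f1 was not called without wild-type replicate 2 or deficient replicate 2 (adjusted p 0.0691 to 0.137, and 0.0013 to 0.137 over all alternatives run), nor without both arrays of high Gapdh difference (0.76).

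Chromatin and methylation factors were split. Uhrf1 recognises hemimethylated DNA behind the fork and brings in Dnmt1, and Chaf1b is a subunit of the histone chaperone that builds nucleosomes on new DNA. Uhrf1 read 4.14, 3.42 and 4.03 on the unstimulated wild-type CD4 arrays and 5.17, 5.17 and 5.42 on the deficient ones, 4.31, 4.20 and 3.85 against 5.69, 5.60 and 5.26 after 4 h, and 4.84 and 5.17 against 6.61 and 6.82 in CD8 cells. Chaf1b read 5.08, 5.0 and 4.87 on the unstimulated wild-type CD4 arrays and 5.74, 5.48 and 5.49 on the deficient ones, 3.86, 3.90 and 3.93 against 4.54, 4.50 and 4.61 after 4 h, and 4.93 and 5.02 against 6.09 and 5.39 in CD8 cells. No wild-type array reached a deficient array of its own setting for either gene. Uhrf1 was higher by 1.39 ± 0.18 (adjusted p = 0.00012), 1.40 ± 0.18 (adjusted p = 9.8e-05) and 1.71 ± 0.22 (adjusted p = 0.000181) in unstimulated CD4, stimulated CD4 and CD8 cells, or 2.62, 2.63 and 3.27 fold. Its dimmer probe set changed by 0.65, 0.68 and 1.12 and was called in CD8 cells (adjusted p = 0.0181). Chaf1b was higher by 0.59 ± 0.14 (adjusted p = 0.0164), 0.65 ± 0.14 (adjusted p = 0.0055) and 0.76 ± 0.17 (adjusted p = 0.0118) in the same order.

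The Chaf1b calls at 0 h rested on few arrays. In unstimulated CD4 cells the gene was not called without wild-type replicate 2 or 3 or deficient replicate 1 (adjusted p 0.0512 to 0.0938, and 0.00109 to 0.127 over all alternatives run), and in CD8 cells it was not called without wild-type replicate 1 or 2 or deficient replicate 1 (adjusted p 0.056 to 0.115, and 0.000363 to 0.161 over all alternatives run), where the change without deficient replicate 1 was 0.41. Averaging with a second probe set, which lies below the table median, left Chaf1b at 0.31 in unstimulated and 0.36 in stimulated CD4 cells, neither called. Dnmt1, the maintenance methyltransferase that Uhrf1 recruits, differed by -0.14 ± 0.13 (adjusted p = 0.663), -0.31 ± 0.13 (adjusted p = 0.159) and -0.10 ± 0.16 (adjusted p = 0.807), all below 0 and not called.

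The 8 polymerase and primase genes gave calls in 3 members. Pole and Pole2 encode the catalytic and an accessory subunit of the leading strand polymerase epsilon, and Pola1 the catalytic subunit of the polymerase that starts new strands. Pole read 3.61, 3.70 and 3.76 on the unstimulated wild-type CD4 arrays and 4.61, 4.16 and 4.14 on the deficient ones, 4.41, 4.05 and 4.08 against 5.07, 4.51 and 4.40 after 4 h, and 4.90 and 4.73 against 5.73 and 5.48 in CD8 cells. Pole2 read 7.12, 7.02 and 7.24 on the unstimulated wild-type CD4 arrays and 8.03, 7.99 and 7.95 on the deficient ones, 6.35, 6.32 and 6.49 against 6.12, 7.14 and 6.75 after 4 h, and 7.33 and 7.58 against 7.99 and 7.10 in CD8 cells. Pole was higher by 0.62 ± 0.17 (adjusted p = 0.0363) in unstimulated CD4 and 0.79 ± 0.20 (adjusted p = 0.0307) in CD8 cells, with no overlap in either. The 0.48 ± 0.17 (adjusted p = 0.084) after 4 h was not called. Pole lost its call in unstimulated CD4 cells without wild-type replicate 1, 2 or 3 or deficient replicate 1 or 2 (adjusted p 0.0569 to 0.192, and 0.00882 to 0.192 over all alternatives run) and in CD8 cells without wild-type replicate 1 or 2 or deficient replicate 1 or 2 (adjusted p 0.0553 to 0.178, and 0.0141 to 0.178 over all alternatives run).

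Pole2 was higher by 0.86 ± 0.22 (adjusted p = 0.0245) in unstimulated CD4 cells, with the 3 deficient arrays at 7.95 to 8.03 and no overlap. Its second probe set, also above the table median, changed by 0.34 there (adjusted p = 0.325), not called. With the brightest probe set Pole2 was not called without wild-type replicate 1, 2 or 3 or deficient replicate 1, 2 or 3 (adjusted p 0.0551 to 0.0966, and 0.000233 to 0.0966 over all alternatives run), that is without any 1 of the 6. After 4 h the difference was 0.28 ± 0.22 (adjusted p = 0.519) and in CD8 cells 0.09 ± 0.27 (adjusted p = 0.905), and the arrays overlapped in both. Pola1 read 5.10, 5.19 and 5.05 on the unstimulated wild-type CD4 arrays and 5.31, 5.24 and 5.34 on the deficient ones, 4.52, 4.06 and 3.94 against 4.84, 4.57 and 4.73 after 4 h, and 5.53 and 5.18 against 5.72 and 5.31 in CD8 cells. Pola1 was called after 4 h, by 0.54 ± 0.15 (adjusted p = 0.0268), against 0.18 ± 0.15 (adjusted p = 0.599) at 0 h and 0.16 ± 0.18 (adjusted p = 0.701) in CD8 cells. That call did not hold without wild-type replicate 2 or 3 or deficient replicate 1 or 3 (adjusted p 0.059 to 0.137, and 0.00509 to 0.137 over all alternatives run).

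Of the 6 MCM2-7 helicase genes, 1 was higher in deficient than in wild-type cells at rest. Another 1 was lower in deficient than in wild-type cells after 4 h. Mcm5 read 6.14, 6.12 and 6.23 on the unstimulated wild-type CD4 arrays and 6.41, 6.57 and 6.64 on the deficient ones, 6.53, 6.48 and 6.49 against 6.63, 6.68 and 6.54 after 4 h, and 6.70 and 6.50 against 7.18 and 6.95 in CD8 cells. Mcm7 read 7.54, 7.52 and 7.37 on the unstimulated wild-type CD4 arrays and 7.36, 7.25 and 7.52 on the deficient ones, 8.04, 7.86 and 7.82 against 7.02, 7.61 and 7.54 after 4 h, and 7.82 and 7.61 against 7.86 and 7.63 in CD8 cells. Mcm5 separated the genotypes in all 3 settings, and Mcm7 did so after 4 h. Mcm5 was higher by 0.37 ± 0.10 (adjusted p = 0.0291) in CD4 and 0.46 ± 0.12 (adjusted p = 0.0285) in CD8 cells. In CD4 cells it was not called without wild-type replicate 1, 2 or 3 or deficient replicate 2 or 3 (adjusted p 0.0582 to 0.124, and 0.0136 to 0.164 over all alternatives run) nor with its probe sets averaged (0.24), and in CD8 cells not without wild-type replicate 1 or 2 or deficient replicate 1 (adjusted p 0.0611 to 0.216, and 0.0168 to 0.216 over all alternatives run). Mcm7 differed by -0.51 ± 0.14 (adjusted p = 0.027) after 4 h, and its second probe set was also called, at -0.47. It was not called without wild-type replicate 1 or 2 or deficient replicate 1 (adjusted p 0.0613 to 0.114, and 0.0152 to 0.117 over all alternatives run), and without deficient replicate 1, an array of high Gapdh difference, the change was -0.33. The other 4 helicase genes changed by -0.45 to 0.44 over the 3 genotype comparisons.

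Among the helicase activators, Mcm10 and the GINS subunit Gins1 were called in CD8 cells. Mcm10 read 3.43, 3.85 and 3.32 on the unstimulated wild-type CD4 arrays and 3.53, 4.19 and 4.27 on the deficient ones, 3.65, 3.38 and 3.44 against 3.46, 3.90 and 3.60 after 4 h, and 3.76 and 3.52 against 4.51 and 4.61 in CD8 cells. Gins1 read 4.85, 4.51 and 4.87 on the unstimulated wild-type CD4 arrays and 5.27, 5.23 and 4.96 on the deficient ones, 4.84, 5.01 and 4.67 against 4.32, 4.81 and 4.89 after 4 h, and 4.24 and 4.81 against 5.65 and 5.06 in CD8 cells. Neither gene overlapped between the CD8 groups. Mcm10 was higher there by 0.92 ± 0.22 (adjusted p = 0.0202) and Gins1 by 0.84 ± 0.23 (adjusted p = 0.0422). Mcm10 was not called without wild-type replicate 1 or 2 or deficient replicate 1 or 2 (adjusted p 0.0557 to 0.151, and 0.0145 to 0.208 over all alternatives run), that is without any of the 4 arrays, and its 2 other probe sets, both below the table median, changed by 0.05 and -0.08. Gins1 was not called without wild-type replicate 1 or deficient replicate 1 (adjusted p 0.272 to 0.379, and 0.00995 to 0.379 over all alternatives run), where it changed by 0.55 and 0.54.

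Lig1, the ligase that seals Okazaki fragments, was higher in both resting comparisons. Lig1 read 5.73, 6.03 and 6.01 on the unstimulated wild-type CD4 arrays and 6.39, 6.22 and 6.45 on the deficient ones, 6.47, 6.51 and 6.36 against 6.57, 6.63 and 6.57 after 4 h, and 6.31 and 6.36 against 6.87 and 6.71 in CD8 cells. Fen1 read 6.05, 5.98 and 5.65 on the unstimulated wild-type CD4 arrays and 6.40, 6.46 and 6.42 on the deficient ones, 6.44, 6.50 and 6.43 against 6.20, 7.16 and 7.10 after 4 h, and 6.22 and 6.27 against 6.98 and 6.48 in CD8 cells. Lig1 did not overlap between genotypes in any setting, and Fen1 did not at rest. Lig1 was higher by 0.43 ± 0.10 (adjusted p = 0.0159) in CD4 and 0.45 ± 0.12 (adjusted p = 0.0411) in CD8 cells. It was not called in CD4 cells without wild-type replicate 1 or deficient replicate 1 or 3 (adjusted p 0.0699 to 0.088, and 0.0105 to 0.088 over all alternatives run), nor in CD8 cells without wild-type replicate 1 or 2 or deficient replicate 1 or 2 (adjusted p 0.0596 to 0.22, and 0.0247 to 0.22 over all alternatives run). Fen1, the flap nuclease that trims these fragments, differed by 0.53 ± 0.20 (adjusted p = 0.139), 0.36 ± 0.20 (adjusted p = 0.315) and 0.48 ± 0.24 (adjusted p = 0.283) and was not called.

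Origin recognition and the clamp gave no call by genotype in the model of all arrays. In the 5 genes of origin recognition and licensing, Orc1, Orc2, Orc6, Cdc6 and Cdt1, the changes ranged from -0.18 to 0.48 in unstimulated CD4, from -0.31 to 0.32 in stimulated CD4 and from -0.18 to 0.55 in CD8 cells. The 9 genes of the clamp Pcna, the clamp loader (Rfc genes) and the single-strand binding protein (Rpa genes) ranged from 0.05 to 0.30, from -0.39 to 0.20 and from -0.26 to 0.40. These roles hold 14 of the 44 members. Some of their genes were called as higher under other settings. Without the 2 arrays of high Gapdh difference these were Rpa2 in unstimulated CD4 cells, Rfc3 after 4 h, and Rfc1, Rfc2, Rfc5 and Rpa2 in CD8 cells. Rfc2 was also called in CD8 cells after quantile normalization and with probe sets averaged, and Rfc5 there with dim genes left out. Cdc6 was called in unstimulated CD4 cells with the compared groups alone, and after 4 h without wild-type replicate 3. Rfc3 was called after 4 h without deficient replicate 1, 1 of the arrays of high Gapdh difference.

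More members were called with 4 h of stimulation than by genotype, in both directions, and so were more of all genes. In wild-type CD4 cells 14 of 44 rose and 11 fell, where 31.9% of all genes were called, 12.8% rising and 19.1% falling. In deficient CD4 cells 4 rose and 14 fell, with a background of 35.3%, 13.8% rising and 21.5% falling. The median change of the members was 0.08 in wild-type and -0.08 in deficient cells, against -0.01 and -0.02 over all genes. Quantile normalization changed the deficient split to 13 higher and 12 lower with a median of 0.09, so the sign of that median depends on the scaling. Leaving out the 2 arrays of high Gapdh difference gave 8 higher and 14 lower in deficient cells. As shares, 31.8% of members rose and 25.0% fell in wild-type cells, and 9.09% rose and 31.8% fell in deficient cells, so the wild-type falls and deficient rises were near or below the background. Arrays of 4 h and 0 h did not overlap for 17 members higher and 13 lower in wild-type cells (19.9% and 25.4% of all genes), and for 6 and 15 in deficient cells (17.8% and 25.7%).

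Members that rose in both genotypes were Cdt1, E2f1, Pcna and Rfc3, and 11 fell in both: E2f2, Dut, Rfc4, Chaf1b, Pole2, Pola1, Pold2, Rfc2, Pold1, Rpa1 and Tyms. Both stimulation comparisons use different arrays. Of all genes, 9.9% rose and 16.5% fell in both. Over the 44 members the changes in the genotypes correlated at r = 0.96 (rho = 0.94), and over all genes r was 0.90. Mcm5, Mcm6, Mcm7, Orc2, Orc6, Cdc6, Rpa2, Pole, Fen1 and Lig1 passed the test for a rise in wild-type cells, and Mcm2, Rfc1 and Rpa3 for a fall in deficient cells, while the differences themselves were not called, as given with the test of the difference.

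**Figure D3:**
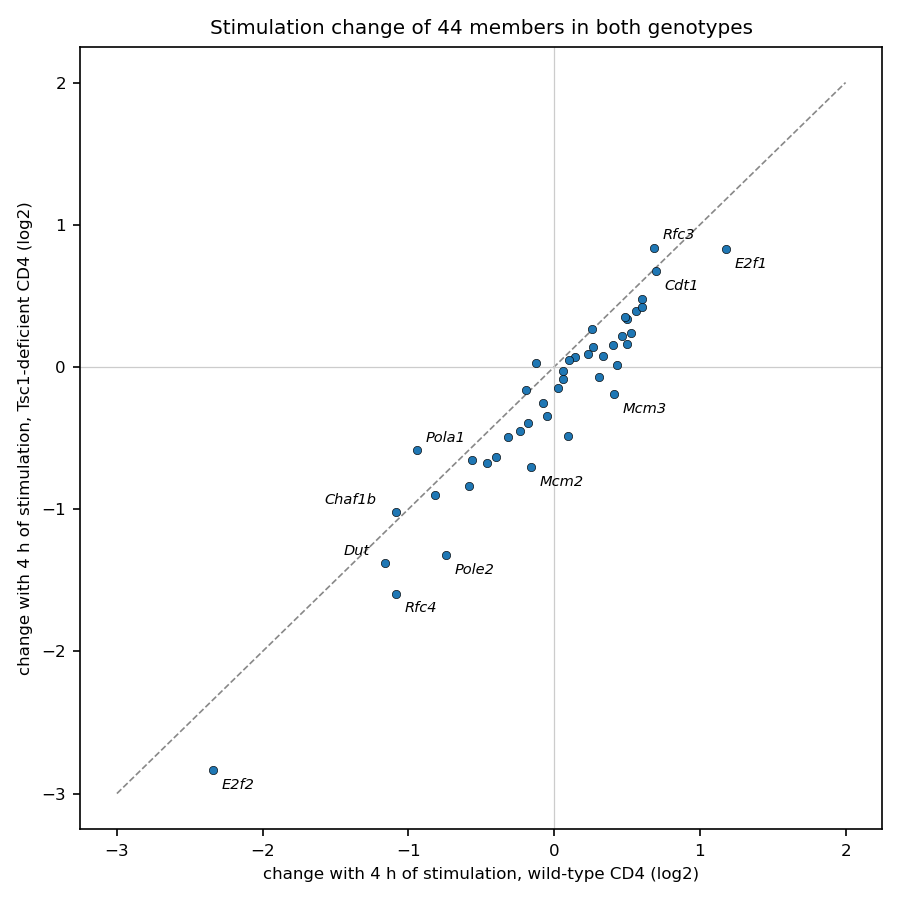
Change of each of the 44 members with 4 h of stimulation in wild-type CD4 cells (horizontal axis, log2) and in Tsc1-deficient CD4 cells (vertical axis, log2), 1 point per gene, with the dashed line at equal change. E2f2 lies lowest at -2.34 and -2.84, E2f1 farthest right at 1.18, and 38 of the 44 points lie below the dashed line.

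The E2F factors moved in opposite directions. E2f2 fell by 5.07 fold in wild-type cells, -2.34 ± 0.16 (adjusted p = 7.41e-09), and by 7.14 fold in deficient cells, -2.84 ± 0.16 (adjusted p = 7.26e-10). All 6 stimulated CD4 arrays, at 3.46 to 5.06, lay below all 6 unstimulated ones, at 5.83 to 7.85. E2f1 rose over the same 4 h by 1.18 ± 0.14 (adjusted p = 4.49e-06) in wild-type and 0.83 ± 0.14 (adjusted p = 0.00016) in deficient cells, and again the unstimulated and stimulated arrays did not overlap. Of the chromatin factors, Chaf1b changed by -1.09 ± 0.14 (adjusted p = 6.88e-06) and -1.02 ± 0.14 (adjusted p = 1.09e-05), and Uhrf1 changed by 0.26 ± 0.18 (adjusted p = 0.334) and 0.26 ± 0.18 (adjusted p = 0.306), not called in either. With 2 probe sets averaged the Chaf1b falls were -0.58 and -0.53, still called.

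Of the 5 licensing genes 4 rose in wild-type cells and none fell, and of the 6 helicase genes 3 rose and none fell. Of all genes, 12.8% rose and 19.1% fell. Among the 4 was Orc2, whose 2 other probe sets, above the table median, changed by 0.10 and 0.12, neither called. With probe sets averaged Orc2 was not called and Orc1 was. Cdc6, another of the 4, had wild-type means of 2.64 at 0 h and 3.14 at 4 h, below the table median. Orc6 is a subunit of the origin recognition complex, and Cdt1 loads the helicase. Orc6 read 6.28, 5.95 and 6.08 on the unstimulated wild-type CD4 arrays and 5.92, 6.08 and 5.94 on the deficient ones, 6.65, 6.80 and 6.68 against 5.88, 6.57 and 6.76 after 4 h, and 6.12 and 6.40 against 6.20 and 6.05 in CD8 cells. Cdt1 read 9.50, 9.60 and 9.61 on the unstimulated wild-type CD4 arrays and 9.33, 9.42 and 9.43 on the deficient ones, 10.33, 10.29 and 10.20 against 10.09, 10.15 and 9.96 after 4 h, and 10.07 and 10.04 against 9.89 and 9.87 in CD8 cells. Mcm6 read 8.56, 8.53 and 8.42 on the unstimulated wild-type CD4 arrays and 8.82, 8.71 and 8.64 on the deficient ones, 8.99, 9.01 and 8.91 against 8.61, 9.15 and 9.07 after 4 h, and 9.02 and 8.92 against 9.33 and 8.99 in CD8 cells. In wild-type cells the 4 h arrays of all 3 genes lay above the 0 h arrays. Cdt1 rose by 0.70 ± 0.08 (adjusted p = 4.26e-06) in wild-type and 0.67 ± 0.08 (adjusted p = 5.44e-06) in deficient cells. Orc6 rose by 0.61 ± 0.17 (adjusted p = 0.00967) in wild-type cells, and its 0.42 ± 0.17 (adjusted p = 0.0632) in deficient cells was not called. Mcm6 rose by 0.47 ± 0.13 (adjusted p = 0.00871) and Mcm7 by 0.43 ± 0.14 (adjusted p = 0.0242) in wild-type cells, against 0.22 ± 0.13 (adjusted p = 0.22) and 0.01 ± 0.14 (adjusted p = 0.965) in deficient cells. Mcm7 was not called without 0 h replicate 3 or 4 h replicate 1 (adjusted p 0.0949 to 0.103, and 0.00262 to 0.103 over all alternatives run). Mcm5 rose by 0.34 ± 0.10 (adjusted p = 0.0116) in wild-type cells and by 0.56 after quantile normalization, and its averaged probe sets gave 0.25, not called.

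In deficient cells 1 licensing gene, Cdt1, rose, and 1 helicase gene, Mcm2, changed by -0.70 ± 0.15 (adjusted p = 0.000853). On deficient 4 h replicate 1, the array with the highest Gapdh difference, Orc6 read 5.88, Mcm6 8.61 and Mcm7 7.02, each the lowest of its group. Without that array 8 members were called as rises in deficient cells, among them Orc6 and Mcm6, and 14 as falls.

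The clamp loader genes split. Rfc3 and Rfc4 encode small subunits of the same complex. Rfc3 read 5.54, 5.47 and 5.47 on the unstimulated wild-type CD4 arrays and 5.53, 5.63 and 5.47 on the deficient ones, 6.12, 6.33 and 6.09 against 5.99, 6.54 and 6.63 after 4 h, and 5.48 and 5.86 against 5.85 and 5.79 in CD8 cells. Rfc4 read 6.53, 6.71 and 6.62 on the unstimulated wild-type CD4 arrays and 6.85, 6.79 and 6.59 on the deficient ones, 5.53, 5.61 and 5.47 against 4.84, 5.40 and 5.21 after 4 h, and 6.64 and 6.99 against 7.05 and 6.56 in CD8 cells. For both genes the 0 h and 4 h CD4 arrays did not overlap in either genotype, with Rfc3 higher and Rfc4 lower after 4 h. Rfc3 rose by 0.69 ± 0.14 (adjusted p = 0.00103) and 0.84 ± 0.14 (adjusted p = 0.000136) in wild-type and deficient cells. Rfc4 changed by -1.08 ± 0.15 (adjusted p = 1.81e-05) and -1.60 ± 0.15 (adjusted p = 1.76e-07), which is 2.12 and 3.02 fold. Pcna, the clamp that the complex loads, rose by 0.60 ± 0.14 (adjusted p = 0.00187) and 0.48 ± 0.14 (adjusted p = 0.00953). Over the 9 genes of this role 3 rose and 3 fell in wild-type cells, and 2 rose and 5 fell in deficient cells.

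In each genotype 4 of the 8 polymerase and primase genes and 2 of the 5 nucleotide supply genes fell. Pold2 is a subunit of the lagging strand polymerase delta. Pold2 read 7.76, 7.77 and 7.67 on the unstimulated wild-type CD4 arrays and 7.67, 7.66 and 7.51 on the deficient ones, 6.77, 7.09 and 6.88 against 6.90, 6.71 and 6.53 after 4 h, and 7.90 and 7.89 against 7.84 and 7.58 in CD8 cells. Dut read 7.93, 8.04 and 7.93 on the unstimulated wild-type CD4 arrays and 8.07, 8.08 and 7.91 on the deficient ones, 6.81, 6.79 and 6.82 against 5.93, 7.11 and 6.89 after 4 h, and 7.91 and 8.10 against 8.16 and 7.67 in CD8 cells. Both genes were lower on every 4 h CD4 array than on any 0 h array. Pold2 changed by -0.82 ± 0.11 (adjusted p = 1.72e-05) in wild-type and -0.90 ± 0.11 (adjusted p = 4.68e-06) in deficient cells. Dut changed by -1.16 ± 0.21 (adjusted p = 0.000304) and -1.38 ± 0.21 (adjusted p = 4.61e-05). Pola1 changed by -0.94 ± 0.15 (adjusted p = 6.15e-05) and -0.59 ± 0.15 (adjusted p = 0.0037), and the second value was -0.25 and not called after quantile normalization. Pole2 changed by -0.74 ± 0.22 (adjusted p = 0.0132) and -1.32 ± 0.22 (adjusted p = 9.18e-05). The second probe set of Pole2, also above the table median, changed by only -0.055 (adjusted p = 0.861) and -0.099 (adjusted p = 0.728), so the falls rest on the brightest probe set. With both probe sets of Pole2 averaged the changes were -0.40 and -0.71, still called. The wild-type call did not hold without 0 h replicate 3 (adjusted p = 0.0508, and 7.34e-05 to 0.0508 over all alternatives run).

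Tyms changed by -0.46 ± 0.16 (adjusted p = 0.0381) in wild-type and -0.68 ± 0.16 (adjusted p = 0.00268) in deficient cells. Neither call held with the probe sets averaged, -0.07 and -0.11, or after quantile normalization, -0.14 and -0.36. The wild-type call also failed without 0 h replicate 1, 2 or 3 or 4 h replicate 1 or 3 (adjusted p 0.0514 to 0.152, and 0.00586 to 0.592 over all alternatives run). Pole was the polymerase gene that rose in wild-type cells, by 0.49 ± 0.17 (adjusted p = 0.0318), though not without 0 h replicate 1, 2 or 3 or 4 h replicate 1 (adjusted p 0.0531 to 0.153, and 0.00339 to 0.153 over all alternatives run). Rrm2 changed by -0.08 ± 0.17 (adjusted p = 0.817) and -0.25 ± 0.17 (adjusted p = 0.309), so the gene with the largest genotype change was not called for stimulation. Fen1 and Lig1 rose in wild-type cells by 0.56 ± 0.20 (adjusted p = 0.0351) and 0.53 ± 0.10 (adjusted p = 0.000475), and Fen1 was not called without 0 h replicate 2 or 3 or 4 h replicate 1, 2 or 3 (adjusted p 0.0559 to 0.155, and 0.000268 to 0.155 over all alternatives run).

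Whether Tsc1 deficiency altered the response was tested as the difference of both stimulation changes. None of the 44 members was called, where 1.2% of all genes were, 0.544% above and 0.661% below 0, and the smallest adjusted p was 0.277. At an unadjusted p under 0.05 there were 6 of 44, E2f2, Gins1, Mcm2, Mcm3, Mcm7 and Rfc4, against 11.8% of all genes, and 0 members were called under every alternative run. The difference was below 0 for 38 of 44 members, where 52.4% of all genes were below 0, with a median of -0.18 against -0.01. Without the 2 arrays of high Gapdh difference it was below 0 for 33 of 44, with a median of -0.13. For E2f2 the difference was -0.49 ± 0.23 (adjusted p = 0.419) with a 95% interval of -0.98 to -0.01, and for Uhrf1 0.01 ± 0.25 (adjusted p = 0.996) with an interval of -0.53 to 0.54.

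Between the lineages, the genotype change was not separable either. None of the 44 members was called for a difference between CD8 and CD4 cells, where 0.117% of all genes were, 0.0702% above and 0.0468% below 0, and the smallest adjusted p was 0.527. At an unadjusted p under 0.05 there were 5, E2f2, Mcm4, Pole2, Prim1 and Rrm2, against 7.77% of all genes, and none was called under any alternative run. Rrm2, Tk1 and E2f2 gave the highest values, 0.76 ± 0.27 (95% interval 0.19 to 1.34), 0.74 ± 0.41 (-0.12 to 1.60) and 0.74 ± 0.26 (0.19 to 1.28), and Pole2 the lowest, -0.77 ± 0.34 (-1.49 to -0.05).

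Wild-type CD8 and CD4 cells at rest differed in 6 members. Uhrf1, Pole, Cdt1, Mcm5 and Lig1 were higher in CD8 cells and E2f2 was lower, with a background of 5.04%, 2.47% higher and 2.57% lower. Without overlap between arrays, 21 members were higher (19.8% of all genes) and 2 lower (17.1%). Uhrf1 and Pole were 2.21 and 2.19 fold higher, by 1.14 ± 0.20 (adjusted p = 0.00185) and 1.13 ± 0.19 (adjusted p = 0.00102). With both Uhrf1 probe sets averaged its difference was 0.74. Cdt1 was higher by 0.48 ± 0.09 (adjusted p = 0.00471), Mcm5 by 0.43 ± 0.11 (adjusted p = 0.0257) and Lig1 by 0.42 ± 0.11 (adjusted p = 0.0408). E2f2 read 5.26 and 5.31 on the CD8 arrays, below the lowest CD4 array at 5.83, a difference of -0.81 ± 0.18 (adjusted p = 0.0135).

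These lineage calls were sensitive to single arrays. The count was 2 to 5 when 1 array was left out, with 3 without CD4 replicate 1, 2 without CD8 replicate 1 and 3 without CD8 replicate 2. Pole was called each time. Uhrf1 was not called without CD8 replicate 2 (adjusted p = 0.0578, and 0.000875 to 0.0578 over all alternatives run), Cdt1 not without CD8 replicate 1 (adjusted p = 0.067, and 0.000774 to 0.067 over all alternatives run), E2f2 not without CD4 replicate 1 or CD8 replicate 1 or 2 (adjusted p 0.0644 to 0.128, and 0.00313 to 0.128 over all alternatives run), Mcm5 not without CD4 replicate 1 or 2 or CD8 replicate 1 (adjusted p 0.0752 to 0.32, and 0.0135 to 0.448 over all alternatives run) and Lig1 not without CD4 replicate 1 or 3 or CD8 replicate 1 or 2 (adjusted p 0.056 to 0.226, and 0.0241 to 0.226 over all alternatives run). Quantile normalization gave 9 higher and 1 lower, and leaving out the 2 arrays of high Gapdh difference, which are not in the compared groups, 10 higher and 1 lower.

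**Figure D4:**
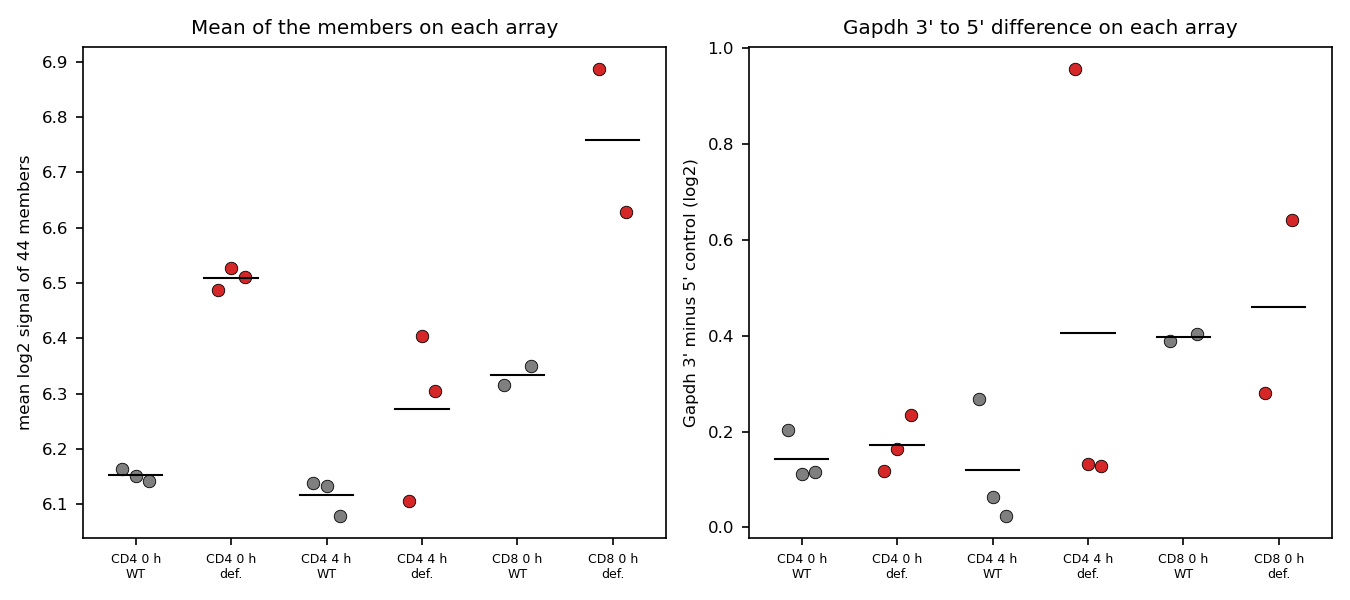
Mean log2 signal of the 44 members (left) and difference between the 3' and 5' Gapdh control probe sets (right, log2) on each of the 16 arrays, grouped by cell type, time and genotype (grey, wild-type; red, Tsc1-deficient), with bars at group means. Member means run from 6.079 to 6.886, and the arrays at 0.956 and 0.642 on the right have the lowest member mean of their groups.

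By array, the mean of the 44 members was 6.143 to 6.163 in unstimulated wild-type CD4 cells and 6.487 to 6.527 in deficient ones. After 4 h it was 6.079 to 6.139 and 6.106 to 6.404, and in CD8 cells 6.316 to 6.35 and 6.629 to 6.886. Genotypes did not overlap at rest and did overlap after 4 h. Deficient 4 h replicate 1 was the lowest of its group for 24 of 44 members (54.5%, against 35.9% of all genes), and deficient CD8 replicate 2 was the lower of its pair for 38 of 44 (86.4%, against 61.8%). The part of RNA quality in these values was not tested.

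The deficient CD8 group had the highest mean of the 6 groups for 24 of the 44 members. It was followed by deficient CD4 cells after 4 h with 8, deficient CD4 cells at 0 h with 6, wild-type CD4 cells after 4 h with 4 and wild-type CD8 cells with 2. Unstimulated wild-type CD4 cells were highest for 0 members and lowest for 15, and wild-type CD4 cells after 4 h were lowest for 13. Orc1, Cdc6, Cdc45 and Tk1 lay below the table median in 1 or more groups. This order is a description and was not tested.

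Other genes of the pathway gave a mixed picture. Of 59 listed outside the members, 54 were measured. In deficient unstimulated CD4 cells 6 were higher and 3 lower (3.96% and 1.87% of all genes). The counts were 5 and 8 after 4 h (5.59% and 3.86%), and 4 and 3 in CD8 cells (3.64% and 2.18%). Higher in all 3 were Ccna2 (cyclin A2, of S phase and G2), E2f8 (a repressor E2F) and Gmnn (geminin, the inhibitor of Cdt1). Ccna2 was higher by 1.08 ± 0.20, 0.98 ± 0.20 and 1.60 ± 0.25 (adjusted p = 0.00389, 0.00533 and 0.00101). E2f8 was higher by 0.81 ± 0.11, 0.69 ± 0.11 and 1.11 ± 0.14 (adjusted p = 0.000242, 0.000822 and 0.000129). Gmnn was higher by 0.78 ± 0.15, 0.50 ± 0.15 and 0.69 ± 0.18 (adjusted p = 0.00407, 0.0447 and 0.0344). Clspn, the checkpoint adaptor at the fork, was higher at rest, by 0.71 ± 0.14 (adjusted p = 0.00412) in CD4 and 1.42 ± 0.17 (adjusted p = 7.97e-05) in CD8 cells. Asf1b, a histone chaperone, was higher in unstimulated CD4 cells by 0.69 ± 0.16 (adjusted p = 0.0178).

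Some fork and nucleotide genes ran the other way. Timeless, a fork protection factor, was lower in deficient cells, at -0.61 ± 0.13 (adjusted p = 0.00932), -0.99 ± 0.13 (adjusted p = 0.000124) and -0.64 ± 0.16 (adjusted p = 0.0255). Tfdp2, a dimer partner of E2F factors, differed by -0.45 ± 0.10 (adjusted p = 0.0149), -0.62 ± 0.10 (adjusted p = 0.000952) and -0.92 ± 0.13 (adjusted p = 0.000326). Rrm2b, the reductase subunit used outside S phase, differed by -0.42 ± 0.11 (adjusted p = 0.0373), -0.47 ± 0.11 (adjusted p = 0.0142) and -0.64 ± 0.14 (adjusted p = 0.0106), opposite in sign to Rrm2. After 4 h Samhd1, a nucleotide hydrolase, was higher by 0.71 ± 0.20 (adjusted p = 0.0306) and Rb1, the pocket protein that binds E2F factors, differed by -0.65 ± 0.17 (adjusted p = 0.0228). Also lower after 4 h were Tipin, the partner of Timeless, Dguok, Dtymk and Shmt1, and the polymerase epsilon subunit Pole3 was higher by 0.38 ± 0.11 (adjusted p = 0.0339). On deficient 4 h replicate 1, the array with the highest Gapdh difference, Rb1 read 7.59 against 8.06 and 8.46 on its fellows. Tipin read 6.99 there against 7.49 and 7.50, and these calls are not given without that array.

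With stimulation 15 of the 54 rose and 14 fell in wild-type cells (12.8% and 19.1% of all genes). In deficient cells 10 rose and 17 fell (13.8% and 21.5%). Dtymk and Dguok, kinases of deoxynucleotide supply, changed by -1.28 ± 0.10 and -1.24 ± 0.12 in wild-type cells (adjusted p = 3.4e-08 and 3.73e-07) and by -1.59 ± 0.10 and -1.63 ± 0.12 in deficient cells (adjusted p = 2.18e-09 and 1.13e-08). Samhd1 rose by 1.23 ± 0.20 (adjusted p = 7.9e-05) and 1.75 ± 0.20 (adjusted p = 1.44e-06). Dbf4, the partner of the origin-firing kinase Cdc7, rose by 1.20 ± 0.17 (adjusted p = 2.58e-05) and 0.68 ± 0.17 (adjusted p = 0.00386). Cad, which starts pyrimidine synthesis, changed by -1.17 ± 0.18 (adjusted p = 5.52e-05) and -1.16 ± 0.18 (adjusted p = 4.9e-05), and Tk2, the mitochondrial thymidine kinase, by -0.99 ± 0.10 (adjusted p = 5.89e-07) and -1.30 ± 0.10 (adjusted p = 1.78e-08). Timeless changed by -1.14 ± 0.13 (adjusted p = 2.19e-06) and -1.53 ± 0.13 (adjusted p = 5.72e-08). Between wild-type CD8 and CD4 cells Ccne1 (cyclin E1), Clspn and Pole3 were higher in CD8 cells, by 0.88 ± 0.24 (adjusted p = 0.0458), 0.67 ± 0.15 (adjusted p = 0.0145) and 0.45 ± 0.12 (adjusted p = 0.0381), and Rb1 differed by -0.83 ± 0.19 (adjusted p = 0.0149). Of all genes, 2.47% were higher and 2.57% lower in wild-type CD8 than in CD4 cells. None of the 54 was called for a difference of the responses (1.2% of all genes) or of the genotype change between lineages (0.117%).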

How the data were processed

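Values are the authors' deposited log2 signals of 16 mouse arrays, summarised with RMA in Partek 6.5 per the submitters' processing notes. No source used here names a genome build. The platform annotation matched 28898 of the 45141 probe sets to 1 gene, 551 to several and 15588 to none, and 104 were control probe sets. Each gene's brightest probe set, by mean log2 signal, stood for it, over 17097 genes. Groups came from the labels' titles and genotypes, and replicate numbers, given in accession order, only name arrays. In limma 3.58.1 (R 4.3.3), lmFit and eBayes used 1 model of all 16 arrays with a mean per group and 10 residual degrees of freedom. Within each comparison, Benjamini-Hochberg adjustment ran over all genes, with calls under 0.05. The fit was tested on simulated data. The number of arrays limits the precision. Motifs were matched exactly in RefSeq windows with Python 3.11.15.

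The members, role groups and lists were chosen with earlier results of these data known. Values on every array are given for members called by genotype, and for the 2 called members of each role with the largest wild-type stimulation change. Up to 5 other pathway genes per comparison were named by size of change. Dnmt1, Mcm2, Pcna, Rrm2b, Tipin, Shmt1, single readings and second probe sets were singled out after their values were seen. Alternatives were other probe set choices, a filter on dim genes, quantile normalization, an intensity trend, the compared groups alone, leaving out the 2 arrays of high Gapdh difference, leaving out each array, and a block of consecutive title numbers.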

Additional observations from a re-analysis of the deposited data

How the results depend on the processing

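Of 831 alternative values of the called changes of the named members, 707 kept their direction and their side of the threshold, 124 kept the direction but missed the threshold, and 0 reversed. Leaving out 1 array at a time gave 5 to 7 called members against 10 in unstimulated CD4 cells by genotype, 5 to 7 against 7 after 4 h, 5 to 8 against 12 in CD8 cells, and 2 to 5 against 6 between wild-type CD8 and CD4 cells. For stimulation the ranges were 20 to 23 against 25 in wild-type and 18 to 22 against 18 in deficient cells. With the compared groups alone, 4 members were called by genotype after 4 h and 6 in CD8 cells, a fit with fewer arrays to estimate the spread. Of all genes, 4.81% and 1.57% were called there. Between wild-type lineages 10 were called after quantile normalization and 11 without the 2 arrays of high Gapdh difference, and the cause was not tested. Both differences of differences had 0 called members under every alternative. Averaging the probe sets of a gene ended the genotype calls of Tyms, Mcm10 and Rrm1. It also ended the CD4 genotype calls of Mcm5 and Chaf1b, whose CD8 calls held. Titles of CD4 arrays carry serial numbers, consecutive for a 0 h and a 4 h array, and no label says that they mark shared mice. With these 6 pairs as a replicate block, an alternative chosen after seeing the data, 25 members were called by stimulation in wild-type and 21 in deficient cells, and 0 for the difference between them. Deviations from the group means correlated at 0.03 to 0.077 across genes within pairs, and for 11 of 12 arrays most highly with the array of the consecutive number. No paired analysis was possible for genotype because each pair lies within 1 genotype. The 2 or 3 arrays of a group limit what size of change can be detected.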
